A study of Mus musculus with 3 samples.

Results

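Immediate early genes are transcribed within minutes of a stimulus, before any new protein has to be made. The 10 genes described here were Fos, Fosb, Jun, Junb, Egr1, Egr2, Atf3, Ier2, Nr4a1 and Dusp1. Their probes were taken by symbol from the annotation of the arrays, and no measured value entered that rule. The genes were, however, chosen with earlier results of these data known. They were read by 12 probes, out of 41174 probes with 28632 gene symbols on each array. Junb and Ier2 had 2 probes each, the other members 1, and the probes of Fos, Jun and Egr2 were each printed in 10 spots per array. All 12 probes passed the signal minimum of 20, stood well above background in all 6 channel readings and were saturated in none.

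Whole hearts of C57/BL6 mice at 2 months of age were compared on 3 two-colour Agilent expression arrays. The labels assign Cy5 to RNA pooled from 2 Lrrc10-/- hearts and Cy3 to a reference pool of 2 wildtype (WT, Lrrc10+/+) hearts, in the same orientation each time. Lrrc10 encodes a leucine-rich repeat protein of cardiomyocytes, and the study describes a germline knockout in mice backcrossed to C57BL/6, so that the deletion would be in every cell of the heart. The methods describe littermates and independent biological replicates, whereas the labels speak of a reference pool, and the spread between WT pools is missing from every test if only 1 was made. Each array is therefore a comparison of pools, n is 3 arrays throughout, and dye and genotype cannot be told apart.

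The probe of the deleted gene went against the labels. Lrrc10 had log2 ratios of Cy5 over Cy3 of 4.91, 5.56 and 5.65 on arrays 1, 2 and 3, with a mean of 5.37 ± 0.41 (SD, n = 3) and a limma adjusted p of 2.51e-04. Its processed signal was 14283, 20828 and 17703 in Cy5, labelled Lrrc10-/-, and 476, 443 and 352 in Cy3, labelled WT. The paper describes Lrrc10 as strongly expressed in the adult heart. Whether the channels were exchanged, and whether the probe lies in the deleted part of the gene, was not tested. Directions below therefore name the dye, Cy5 for the channel labelled Lrrc10-/- and Cy3 for the channel labelled WT, and none is a statement on genotype. Had the channels been exchanged, every sign would turn. Over the 29576 tested probes of 20603 genes, the log2 ratios of arrays 1 and 2 correlated at r = 0.10, arrays 1 and 3 at r = -0.04 and arrays 2 and 3 at r = -0.18, across probes, which are not independent replicates.

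FOS proteins pair with JUN proteins to form AP-1, whose sites in DNA fit the letters TGANTCA, where N stands for any base. ATF3 joins such dimers and often represses its targets. EGR1 and EGR2 are zinc finger factors, NR4A1 is an orphan nuclear receptor, IER2 is a nuclear protein of the early response, and DUSP1 is a phosphatase that shuts off MAP kinases. In the heart these genes are known to respond to stretch, pressure load, catecholamines and ischaemia, and in any tissue they also respond to removal and handling. Their induction runs through serum response factor at CArG boxes and through CREB at cyclic AMP response elements (CRE, TGACGTCA, with the core TGACG). For this reason 150 bases before the annotated start of 3 members are shown, from RefSeq on GRCm38.p6, on the strand of the gene, with any CArG box, CRE and CRE core in capitals. Fos lies at chr12:85473740-85473889 on the plus strand, the Egr2 start with both kinds of element at chr10:67537719-67537868 on the plus strand, and Dusp1 at chr17:26508473-26508622 on the minus strand.
Fos: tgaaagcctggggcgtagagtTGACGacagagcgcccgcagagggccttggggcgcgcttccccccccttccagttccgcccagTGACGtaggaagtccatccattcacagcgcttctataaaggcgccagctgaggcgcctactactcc
Egr2: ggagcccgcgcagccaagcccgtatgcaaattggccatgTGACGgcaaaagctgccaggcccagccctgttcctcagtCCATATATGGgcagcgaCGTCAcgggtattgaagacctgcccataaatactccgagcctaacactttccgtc
Dusp1: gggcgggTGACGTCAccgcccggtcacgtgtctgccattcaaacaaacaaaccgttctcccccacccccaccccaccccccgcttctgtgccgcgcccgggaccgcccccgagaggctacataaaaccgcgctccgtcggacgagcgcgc

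The whole window searched was the 250 bases before a start, read on both strands, of which the stretches above are a part. At least 1 RefSeq window was held for 8 of the 10 genes, with 12 windows in all. The CRE core was found in 7 of these 8 genes, Jun being the exception. By window, it was found in 9 of the 12, and in 17.8% of all 32841 windows. A full CRE was found in Dusp1 alone and in 1.55% of all windows, and it contains the core on both strands. A CArG box was found in Egr2 alone, at 4 of its windows, and in 1.47% of all windows. Some of these Egr2 windows overlap and hold the same CCATATATGG, so the 4 are not separate elements. The EGR site GCGNGGGCG was found in Fosb and Nr4a1 and in 4.7% of all windows. No member window held the letters TGANTCA that AP-1 sites fit, which 6.75% of all windows held. With any base allowed at N, not every match need be an AP-1 site. These are letter matches in a short window, and elements further upstream were not read.

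None of the 10 genes passed limma's test of the mean ratio over the arrays, and in 8 of them, Junb and Atf3 being the exceptions, the SD over the arrays exceeded the size of the mean. Of the 29576 tested probes, 0.00676% were called brighter in Cy5 and 0.0% brighter in Cy3 at an adjusted p of 0.05. Without array 3 the same fit called 377 probes brighter in Cy5 and 134 brighter in Cy3, of which 0 were members. The limma adjusted p of every member was 1.00, and their unadjusted p ran from 0.065 for Junb to 0.968 for Fos, so no member was under 0.05 unadjusted either (1.54% of tested probes were, brighter in Cy5, and 1.52% brighter in Cy3). On array 1, 8 of 10 members were brighter in Cy5, against 50.4% of tested probes. On array 2 it was 3 of 10 against 50.5%, and on array 3 it was 2 of 10 against 49.2%. The median log2 ratio of the members was 0.13 on array 1, -0.26 on array 2 and -0.09 on array 3, where that of all tested probes was 0.00, 0.01 and -0.01. Averaged over arrays first, the members had a median of -0.06 and all tested probes one of 0.00. Without array 1 the members' median was -0.28, without array 2 it was -0.03 and without array 3 it was -0.04. After normexp background correction with median centring, which brought the median of all tested probes to 0.15, the members' median turned to 0.25, and 6 of 10 members lay above the median of all probes, against 2 of 10 before. The groups of samples are whole tissue, in which fewer cells of a type and less RNA per cell cannot be told apart.

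**Figure D1:**
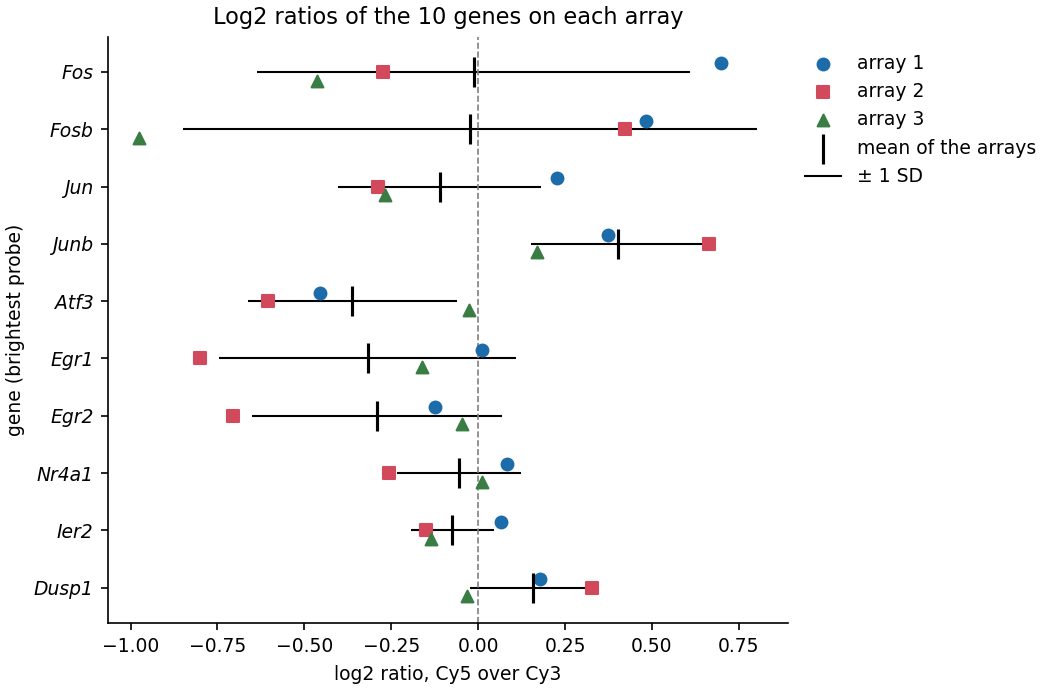
Log2 ratio of Cy5 over Cy3 (x axis) for the brightest probe of each gene (y axis) on arrays 1 to 3, with the mean and 1 SD over the 3 arrays. Junb lies above 0 and Atf3 and Egr2 below 0 on all arrays, and the other 7 genes lie on both sides of 0; after normexp correction with median centring the means of Atf3 and Egr2 turned above 0.

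Fos and Fosb, the FOS partners of AP-1, had means near 0 that lay between opposed arrays. For Fos, the log2 ratio was 0.70 on array 1, -0.27 on array 2 and -0.46 on array 3, with a mean of -0.01 ± 0.62 (SD, n = 3; 95% interval by limma -0.71 to 0.69; limma adjusted p 1.00). Its processed signal in Cy5 was 110.0, 203.6 and 94.5 on arrays 1 to 3, and in Cy3 it was 67.8, 245.9 and 130.2. Cy3 of array 1 was thus the dimmest of the 6 Fos readings and Cy3 of array 2 the brightest. After the channels of all arrays had been brought to a common scale, the Cy3 levels of Fos spanned 2.98-fold and its Cy5 levels 1.54-fold. The size of the Fos ratios depends on the processing. After normexp correction with loess they were smaller, at 0.29, -0.03 and -0.11 on arrays 1 to 3. With median centring in place of loess they were 0.29, 0.08 and -0.05, so array 2 had the sign of array 1. Fosb is induced with Fos and its spliced product ΔFosB is unusually stable. For Fosb, the log2 ratio was 0.48, 0.42 and -0.98 on arrays 1 to 3, with a mean of -0.02 ± 0.83 (SD, n = 3; 95% interval -0.76 to 0.71). Its Cy5 signal was 510.6, 372.8 and 286.8 and its Cy3 signal 365.5, 278.1 and 564.1. The single-spot p-value of the Agilent software, which takes in 1 hybridization only, was 0.0219, 0.0450 and 1.28e-05 for Fosb on arrays 1 to 3. Each was under 0.05, but the brighter channel was not the same on all arrays. The intervals of both genes reach to about 0.7 on either side of 0, so a mean difference of that size was not detectable with 3 arrays.

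Jun and Junb encode the JUN partners. JUN is the stronger activator and JUNB often holds it back. For Jun, the log2 ratio was 0.23, -0.29 and -0.27 on arrays 1 to 3, with a mean of -0.11 ± 0.29 (SD, n = 3; limma adjusted p 1.00). The Cy5 signal of Jun was 2164, 2573 and 2024 and its Cy3 signal 1849, 3144 and 2438, so its sign on each array was that of Fos. Junb was the only member brighter in Cy5 on all 3 arrays, which 10.0% of all tested probes were. By its brighter probe, the log2 ratio was 0.37, 0.66 and 0.17, with a mean of 0.40 ± 0.25 (SD, n = 3), or 1.32-fold, and a 95% interval of -0.03 to 0.84 (limma adjusted p 1.00). After normexp correction with loess the mean was 0.19. The Cy5 signal of that probe was 8021, 14209 and 8666 and its Cy3 signal 6191, 8963 and 7708. It reached 1.2-fold on arrays 1 and 2 but not on array 3.

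The second Junb probe gave lower ratios on every array, of 0.11, 0.39 and -0.04, and a mean of 0.15 ± 0.22 (SD, n = 3; limma adjusted p 1.00). On GRCm38.p6, Junb lies at chr8:84976909-84978748. Both probes carry the accession of the same Junb transcript and overlap by a run of 22 bases, so they are not independent readings. Array 2 gave the highest ratio with both. The first 30 of the 60 bases of each are shown because the 2 readings differ in sign on array 3.
Junb, brighter probe: ttcgtgtctaaagtctattttaagatgtgt
Junb, second probe: tccccctctgcatagtactgtggagaagaa

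Atf3, an ATF family factor that is a common marker of cell stress, was brighter in Cy3 on all 3 arrays, but its mean turned to 0.13 after normexp correction with median centring. Its log2 ratio was -0.46 on array 1, -0.60 on array 2 and -0.03 on array 3, with a mean of -0.36 ± 0.30 (SD, n = 3; 95% interval -0.86 to 0.13; limma adjusted p 1.00). The Cy5 signal of Atf3 was 491.7, 577.3 and 714.2 and its Cy3 signal 674.4, 877.3 and 727.3. The single-spot p-value was 0.0293 on array 1, 0.00441 on array 2 and 0.898 on array 3, where the channels nearly coincided. Atf3 and Egr2 were the 2 members brighter in Cy3 on all arrays, which 11.0% of tested probes were; under the same correction Egr2 turned to 0.056.

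Egr1 and Egr2, zinc finger factors that bind the same GC-rich site, had their lowest ratios on array 2. For Egr1, the log2 ratio was 0.01, -0.80 and -0.16 on arrays 1 to 3, with a mean of -0.32 ± 0.43 (SD, n = 3; 95% interval -0.83 to 0.19; limma adjusted p 1.00). Its Cy5 signal was 1258, 1535 and 1207 and its Cy3 signal 1249, 2674 and 1350, so that Cy3 of array 2 stood above the other 5 readings. For Egr2, the log2 ratio was -0.12, -0.71 and -0.05, with a mean of -0.29 ± 0.36 (SD, n = 3; 95% interval -0.84 to 0.26; limma adjusted p 1.00). Its Cy5 signal was 280.0, 337.3 and 212.5 and its Cy3 signal 305.0, 549.9 and 219.5, again with the highest reading in Cy3 of array 2. On the common scale, the log2 level of Egr1 had an SD over the arrays of 0.33 in Cy3 and 0.13 in Cy5, and that of Egr2 an SD of 0.39 in Cy3 and 0.10 in Cy5.

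By their brightest probes, Nr4a1, Ier2 and Dusp1, like Jun, reached 1.5-fold on no array. For Nr4a1, the log2 ratio was 0.08, -0.26 and 0.01 on arrays 1 to 3, with a mean of -0.05 ± 0.18 (SD, n = 3; 95% interval -0.48 to 0.37). Its Cy5 signal was 3837, 4735 and 2750 and its Cy3 signal 3625, 5658 and 2730. By its brighter probe, Ier2 had log2 ratios of 0.06, -0.15 and -0.14, with a mean of -0.07 ± 0.12 (SD, n = 3; 95% interval -0.51 to 0.36). This was the smallest SD over arrays among the brightest probes of the members. Dusp1, the feedback brake on MAP kinases, had log2 ratios of 0.18, 0.33 and -0.03, with a mean of 0.16 ± 0.18 (SD, n = 3; 95% interval -0.26 to 0.58; limma adjusted p 1.00). The Cy5 signal of Dusp1 was 5885, 9905 and 5236 and its Cy3 signal 5200, 7892 and 5354. Like Junb, Dusp1 had its highest ratio on array 2, where the EGR genes had their lowest.

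**Figure D2:**
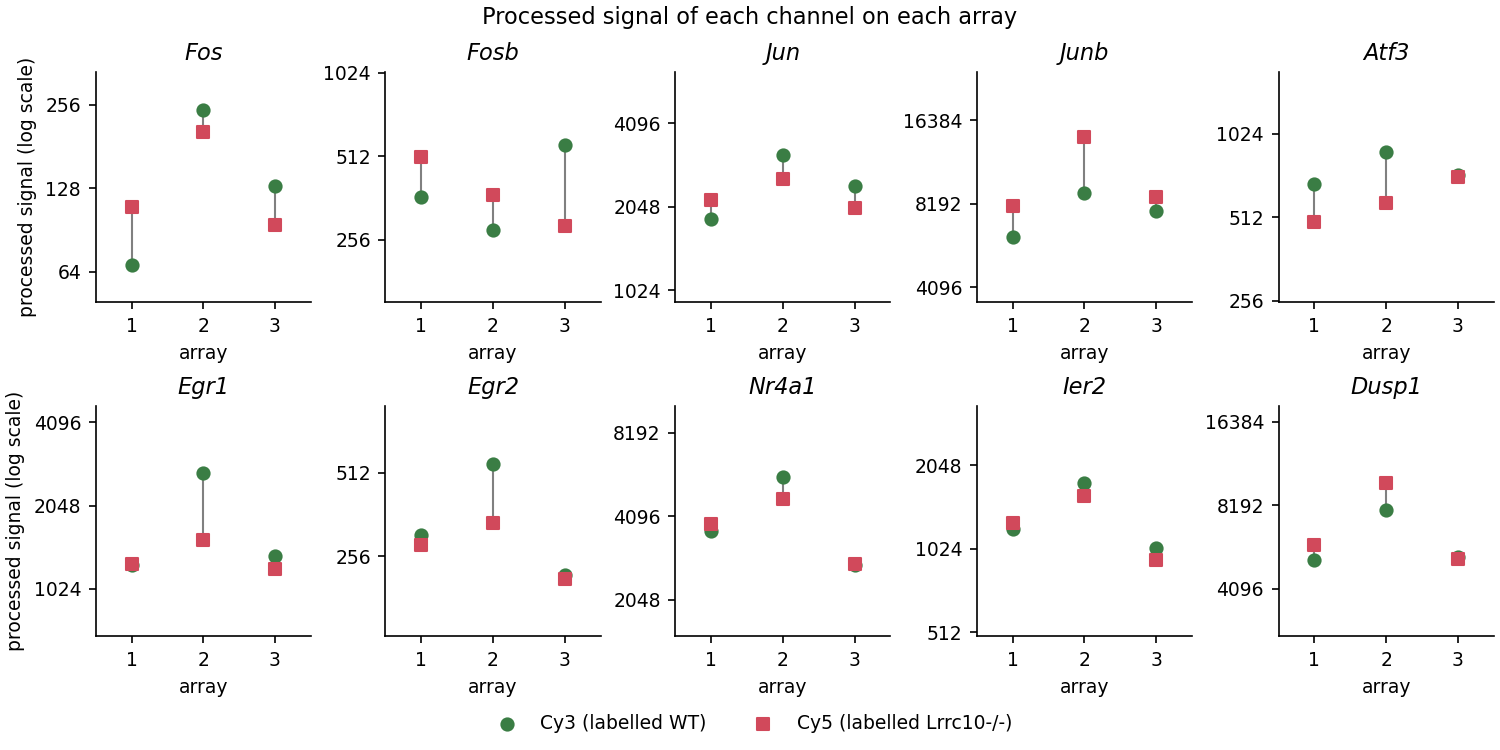
Processed signal (y axis, log scale) of Cy3 and Cy5 on each array (x axis) for the brightest probe of each gene, with a line joining the channels of an array; all panels span the same fold. Array 2 was brighter as a whole, and the Cy3 points of Egr1 and Egr2 there, and of Fosb on array 3, stand well above the Cy5 points.

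A second, dimmer Ier2 probe did not follow the first. Its log2 ratio was -0.997, 0.24 and 1.13 on arrays 1 to 3, with a mean of 0.13 ± 1.07 (SD, n = 3; limma adjusted p 1.00), at signals between 45.9 and 122.0 over the 6 channels. RefSeq places Ier2 at chr8:84661331-84662852. The second probe carries the accession of a cDNA clone and not that of the Ier2 RefSeq transcript that the brighter probe carries, and the longest run the 2 probes share is 8 bases. The first 30 of 60 bases of each are shown because the 2 probes share a symbol but not their readings.
Ier2, brighter probe: ctgaactgaaccaatcaaatctgcgcagag
Ier2, second probe: ccccccgggaagtttaagatcattcttaac

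At least 1.2-fold in the same direction on all 3 arrays was reached by 0 of 10 members, where 1.71% of tested probes reached it in Cy5 and 1.95% in Cy3. Without array 1 it was reached by 2 members in Cy3 (Fos and Jun), and without array 3 by 2 in Cy5 (Fosb and Junb) and 1 in Cy3 (Atf3). These counts ask for 2 arrays only, which is a looser rule. The share of all tested probes under it was not computed, so the percentages above are no background for these counts. The first of these counts rests on 1 low spot of each gene on array 2, where the median over the 10 spots was -0.17 for Fos and -0.23 for Jun, which is short of 1.2-fold for both. On single arrays, 1.5-fold was reached in Cy5 by 1 member on array 1 (Fos, against 8.5% of tested probes), 1 on array 2 (Junb, against 14.5%) and 0 on array 3 (against 10.8%). In Cy3 it was reached by 0 members on array 1 (against 9.29%), by 3 on array 2 (Atf3, Egr1 and Egr2, against 12.8%) and by 1 on array 3 (Fosb, against 9.14%). Taken over the arrays, 6 of 10 members reached 1.5-fold somewhere, as did 47.0% of tested probes. Ratios of both signs were seen in 7 of 10 members and in 79.0% of tested probes. These shares of the members lie near those of all tested probes, apart from the count in Cy3 on array 2, which rests on 3 genes. That count depends on the processing. After normexp correction with loess, Atf3, Egr1 and Egr2 stood at -0.27, -0.51 and -0.26 on array 2, and with median centring at -0.046, -0.23 and -0.090. None of these reached 1.5-fold, and the share of all tested probes under these settings was not computed.

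The repeated spots of Fos, Jun and Egr2 give the spread within an array beside the spread between arrays. On array 1, all 10 Fos spots and all 10 Jun spots were brighter in Cy5, and on arrays 2 and 3 all 10 spots of each were brighter in Cy3. The 10 Egr2 spots were all brighter in Cy3 on arrays 1 and 2, as were 8 of 10 on array 3. Spots of a probe had a pooled SD of 0.26 for Fos, 0.11 for Jun and 0.07 for Egr2, against SDs between arrays of 0.62, 0.29 and 0.36. The spread of spots holds only what varies within 1 hybridization, so it gives no measure of noise between hybridizations. A single spot stood apart on array 2 in both genes. For Fos it lay at -1.41, with the next lowest at -0.29, and for Jun it lay at -0.81, with the next lowest at -0.28. Spots share the RNA of their array, so they add no replicates.

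**Figure D3:**
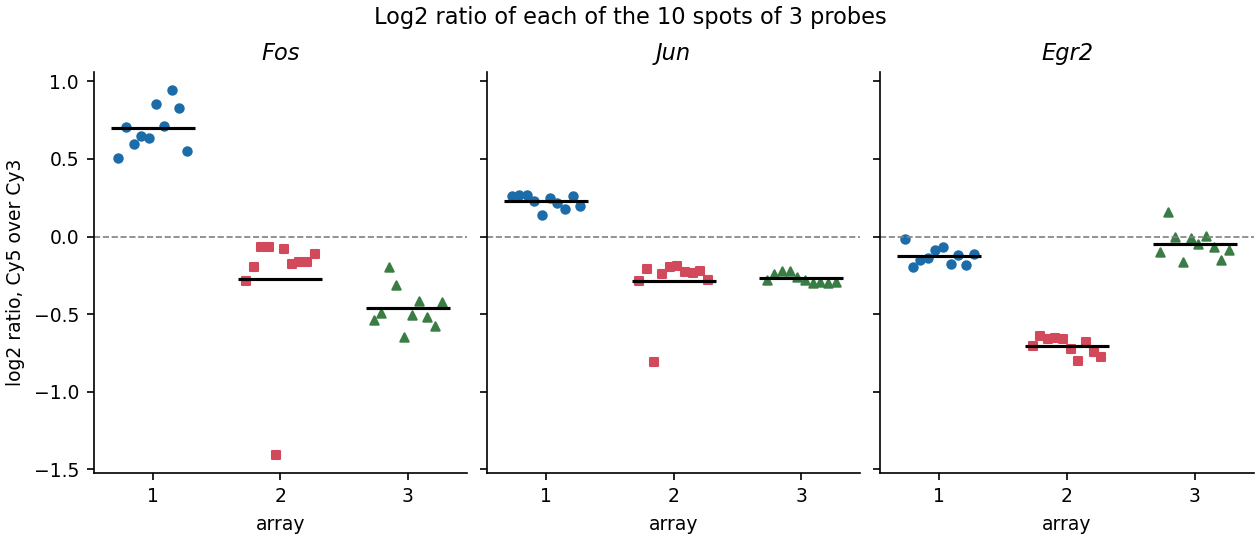
Log2 ratio of Cy5 over Cy3 (y axis) of each of the 10 spots of the Fos, Jun and Egr2 probes on each array (x axis), with the mean of the spots as a line. Fos and Jun spots lie above 0 on array 1 and below 0 on arrays 2 and 3, and 1 low spot of each stands apart on array 2.

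Most members varied no more between arrays than other probes did. The SD of the log2 ratio had a median of 0.30 over the 10 members and 0.39 over all tested probes. By brightest probe, only Fosb, Fos and Egr1 were above that median, with SDs larger than 89.1%, 77.5% and 56.1% of tested probes. The second Ier2 probe, at an SD of 1.07, was above 95.3% of them. At signals from 100 to 1000, the range that holds Fos, Fosb, Atf3 and Egr2, the median SD of tested probes was 0.39, and from 1000 to 10000, which holds the other 6, it was 0.31. By channel, the SD of the common-scale level over arrays had a median of 0.26 in Cy3 and 0.17 in Cy5 for the members, and of 0.38 and 0.21 for all tested probes. Cy3 varied more than Cy5 in 7 of 10 members and in 78.2% of tested probes, so this was general to the arrays. No member was above the 90th percentile of all tested probes in either channel.

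**Figure D4:**
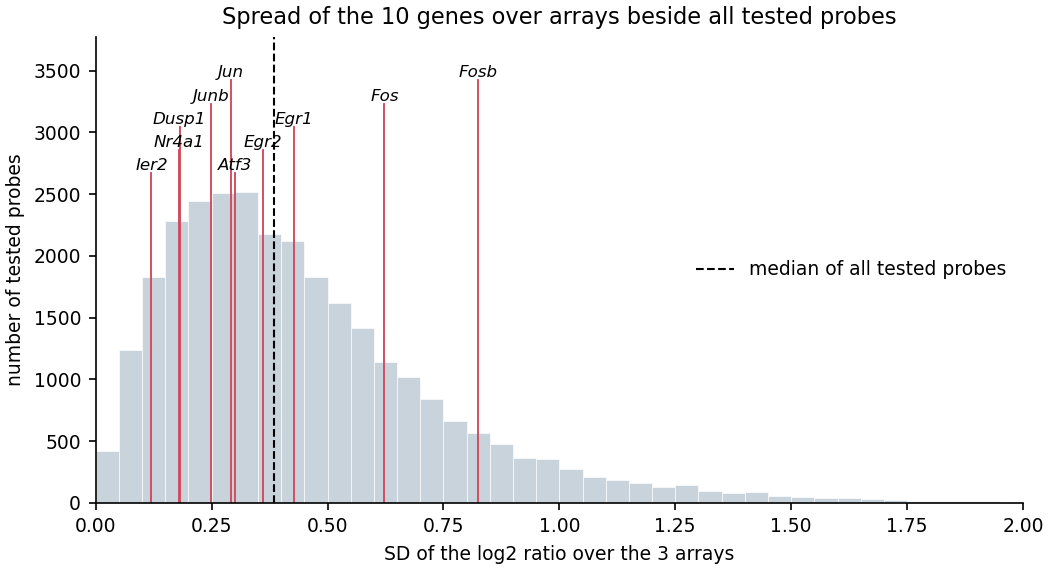
Number of tested probes (y axis) by SD of the log2 ratio over the 3 arrays (x axis; 95 probes above 2 are not drawn), with the median of all tested probes dashed and the 10 genes as lines. By brightest probe, Fosb, Fos and Egr1 lie above the median and the other 7 genes below it.

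Marker levels moved between the arrays too. All 7 cardiomyocyte markers were well above background in every channel, as the labelled tissue would have them, with a median log2 ratio of 0.03, -0.48 and -0.21 on arrays 1 to 3. The fat markers had medians of 1.52, -0.28 and -1.13 over 5 tested genes, and their summed signal in Cy3 was 159, 447 and 501, while that in Cy5 was 527, 352 and 175. These run from Cy5 on array 1 to Cy3 on arrays 2 and 3, as Fos does. The medians of the cardiomyocyte, endothelial and fibroblast markers had the same signs by array, so this was not particular to fat. Those of fibroblast were 0.40, -0.36 and -0.08, and the remaining marker lists had other signs. Of the 6 fat genes with a probe, Cidec and Cfd were well above background in all channels and Lep in none. The atrial markers had medians of -0.16, 2.41 and -0.98, with array 2 far towards Cy5, where Egr1 and Egr2 were brighter in Cy3. Their summed signal ranged from 76789 to 120935 in Cy3 and from 43551 to 84070 in Cy5, most of it from Nppa, and all 4 were well above background in every channel. Nppa itself, which encodes atrial natriuretic peptide, was brighter in Cy3 on every array, at -0.89, -0.61 and -0.82. By the labels this would be lower in Lrrc10-/-. The paper reports the reverse, with Nppa raised in adult Lrrc10-/- hearts by microarray, qRT-PCR and Western blotting. The probe of Lrrc10 went against the labels too. Had the channels been exchanged, the sign of Nppa would turn and have the direction of the paper. The cause of this difference was not tested. The endothelial markers, of which all 6 were well above background everywhere, had medians of 0.15, -0.61 and -0.30, with summed signals of 23961 to 48873 in Cy3 and 21920 to 30680 in Cy5. Over the arrays, the median mean log2 ratio was -0.04 for skeletal muscle, 0.39 for red blood cell, -0.10 for leukocyte, 0.04 for smooth muscle, -0.04 for fibroblast, -1.36 for mesothelial (3 tested genes) and 0.14 for Schwann markers, with 0 genes called in any of the 11 lists. The part of these tissues in the ratios of the members was not tested.

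Other genes of the same response were read from lists, and no gene of any list was called by limma. The other AP-1 partners had a median mean log2 ratio of 0.11 over 7 tested genes, from Jund at -0.24 to Mafg at 0.29. Jund, the JUN family member with the least dependence on stimulation, had log2 ratios of 0.34, -0.77 and -0.29, with the signs of Jun on each array. The other EGR, NR4A and KLF factors had a median of 0.01 over 6 tested genes, from Egr3 at -0.40 to Klf4 at 0.27, and 0 of the 6 were under 0.05 unadjusted. Klf2, which endothelial cells raise under flow, had opposed ratios of -1.39, -0.07 and 1.56, and was picked after its values were seen.

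The other dual specificity phosphatases had a median of -0.04 over 9 tested genes. Of these, 2 were under an unadjusted limma p of 0.05 and brighter in Cy5, Dusp7 and Dusp14, the latter not well above background in every channel. Dusp7, a cytoplasmic phosphatase of ERK, had log2 ratios of 0.82, 1.21 and 0.46 and a mean of 0.83 ± 0.37 (SD, n = 3; limma adjusted p 1.00), the highest of the list among genes well above background throughout. Dusp4, a nuclear phosphatase, was lowest at -0.27. The serum response factor and MAP kinase inputs, which act upstream of the members, had a median of -0.02 over 16 tested genes, with 1 under 0.05 unadjusted. This was Elk3, a partner of serum response factor, at -0.43, -0.90 and -0.18 with a mean of -0.50 ± 0.36 (SD, n = 3; limma adjusted p 1.00), and Creb1 was highest at 0.24.

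The other primary response genes, 22 tested, had a median of 0.06, with 2 under 0.05 unadjusted and brighter in Cy5 (Rgs2 and Ier3) and 1 brighter in Cy3 (Ctgf). Rgs2, which quenches G protein signalling, was highest, with log2 ratios of 1.40, 1.40 and 0.52 and a mean of 1.10 ± 0.51 (SD, n = 3; limma adjusted p 1.00). Ctgf (now Ccn2), a matricellular protein raised by stretch, was lowest, with log2 ratios of -0.42, -0.99 and -0.35 and a mean of -0.59 ± 0.35 (SD, n = 3; limma adjusted p 1.00). The stress-induced genes had a median of 0.26 over 11 tested genes, with 2 under 0.05 unadjusted and brighter in Cy3 (Cdkn1a and Ddit4). Ier3, Ddit4 and Dusp14, at means of 0.62, -0.60 and 0.81, are named after their values were seen. Cdkn1a, the cell cycle inhibitor downstream of p53, was lowest at -0.53, -0.94 and -0.98, with a mean of -0.82 ± 0.25 (SD, n = 3; limma adjusted p 1.00), and its 3 arrays lay close together. Mt2, a metallothionein induced by metals and glucocorticoids, was highest, at 1.29, 1.91 and -1.04 with a mean of 0.72 ± 1.56 (SD, n = 3), and array 3 opposed the other 2. By array, the medians of 3 of the 6 lists had their highest value on array 1, as the members did.

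**Figure D5:**
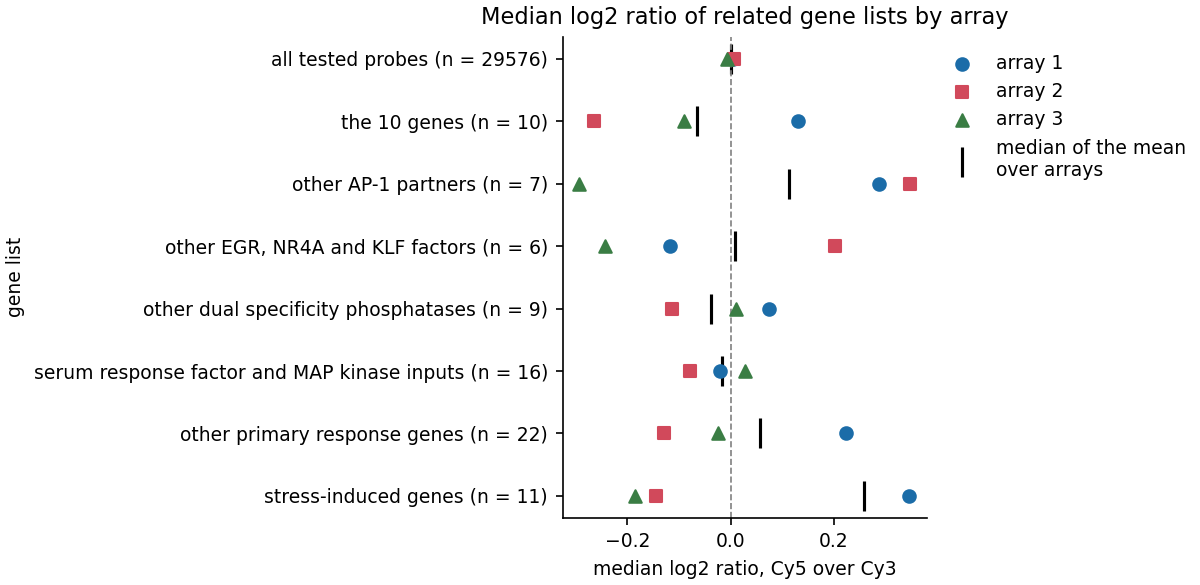
Median log2 ratio of Cy5 over Cy3 (x axis) on each array for all tested probes, the 10 genes and 6 related lists (y axis, n tested), with the median of the mean over arrays as a bar. The medians of the 10 genes run from -0.26 on array 2 to 0.13 on array 1, and all lists change sign between arrays.

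Genes nearest to the members over the 3 arrays were sought among 18075 genes well above background throughout, by Euclidean distance between log2 ratios. Nearest to the median profile of the members were Ctdsp1, Cd2bp2, Art3, Pak2 and an Ensembl transcript with no symbol, at distances of 0.014 to 0.040. Nearest to Fos were Ecm1, Pram1, Spata2l, Racgap1 and Gxylt2, at 0.080 to 0.175. Ecm1, a secreted matrix protein, had log2 ratios of 0.71, -0.20 and -0.42. With 3 points per gene, close profiles arise among many genes, and members were left out of the search.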

How the data were processed

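Hearts were profiled on 3 two-colour Agilent arrays, grouped as 1 contrast by the sample labels. The authors deposited Agilent Feature Extraction 9.1.3.1 output, whose processed signal intensities had been background-subtracted, detrended and dye-normalized (linear, then lowess) array by array. The deposited log10 ratio is that of processed Cy5 over Cy3, and the deposited p-value is that of 1 spot on 1 array. A second deposited table of log10 ratios repeats them.

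Control spots and outlier spots (11, 21 and 4 on arrays 1 to 3) were left out, saturated spots were kept, and log2 ratios were averaged over the spots of a probe. Probes with a geometric mean signal of at least 20 and a value on every array were tested against 0 with limma 3.58.1 in R 4.3.3 (eBayes with intensity trend, two-sided, Benjamini-Hochberg over all tested probes). The fit was also run on simulated data, with changes larger than the mean of any member, so that run says nothing on changes of their size. Levels of single channels came from Aquantile normalization after the dye normalization. Median processed signals were 144.3, 171.8 and 125.6 in Cy3 and 142.6, 173.7 and 124.8 in Cy5, and the number of arrays limits the precision. The arrays shared a slide, so slide could not be tested. 24844 probes were named through RefSeq accessions and the rest by the array's own, older names.

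All members were named by all their probes, the brightest standing for the gene. In other lists, the rule named genes past limma and otherwise the highest and the lowest mean among those well above background throughout, with the 5 genes nearest to the members and to Fos. The lists covered AP-1 partners, EGR, NR4A and KLF factors, dual specificity phosphatases, serum response factor and MAP kinase inputs, primary response and stress-induced genes, and markers of 11 cell or tissue types. Members, lists, motifs and the marker types described were chosen with earlier results of these data known. Alternatives were no signal minimum or 50, normexp background correction (offset 50) with loess or median centring, eBayes without trend, the methods' t-test, outlier spots kept, saturated probes left out, the second table, the mean over probes, stricter folds, and each array left out. The median over spots was added after seeing the data.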

Additional observations from a re-analysis of the deposited data

How the results depend on the processing

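Under all alternatives run, 0 of 10 members were called by limma. The lowest adjusted p of any member was 0.072, for Dusp1 after normexp with median centring, where Junb and Dusp1 were under 0.05 unadjusted and 2 members (the same ones) were at least 1.2-fold brighter in Cy5 on all arrays. That setting also moved the members' median to 0.25 and turned the means of Atf3 (0.13), Egr1 (0.25), Egr2 (0.056), Fos (0.11), Fosb (0.15), Ier2 (0.25), Jun (0.31) and Nr4a1 (0.44) above 0; set against the median of all tested probes there (0.15), Atf3, Egr2, Fos and Fosb stayed below it. Normexp with loess turned Fos to 0.051 and Nr4a1 to 0.039, the median over spots turned Fos to 0.0037, and the mean over both probes turned Ier2 to 0.026. Leaving out 1 array gave means from -0.37 to 0.21 for Fos, -0.28 to 0.45 for Fosb and -0.12 to 0.046 for Nr4a1, a members' median from -0.28 to -0.028, 0 to 2 members at 1.2-fold on the remaining arrays in either channel (Fos and Jun without array 1, each through 1 low spot on array 2), and 0 to 377 calls in Cy5 and 0 to 134 in Cy3 over all tested probes, the highest of both without array 3. For the counts of members at 1.2-fold under the alternatives, the share of all tested probes was not computed. The calls in Cy5 were 0 by the methods' t-test and with no signal minimum, and 1 with normexp and loess or a minimum of 50. Only the means of Junb and Dusp1 kept their sign under every alternative; without array 2 the other Junb probe was the brighter and stood for the gene, at a mean of 0.033. The cause of these shifts was not tested. No paired analysis was possible because the series holds 1 group, whose ratios already pair the channels of an array. The number of arrays limits every value, and signal over background excluded no member.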
